A study of Drosophila melanogaster with 2 samples.

Results

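The 28 Rab GTPase genes of Drosophila melanogaster were examined for sites of Groucho, the product of gro, near their transcription start sites (TSSs). They are the protein-coding genes whose symbol is Rab followed by a number, or RabX followed by a number, and they were 28 of 13945 protein-coding genes on the arms 2L, 2R, 3L, 3R, 4 and X. The embryos, 0 to 24 h old and of both sexes, were taken whole from a gro-GFP line, a transgenic stock that makes gro with GFP at its C-terminus. Their chromatin was sonicated to 200 to 800 bp, and ChIP-seq was run on what an antibody against GFP pulled down. There was 1 group of 2 biological replicates, called 1 and 3 after the labels, so no contrast between conditions exists and all values describe the same kind of embryo. Lists of 30000 regions were deposited for each replicate and for both replicates pooled. Of the pooled regions 4492 were in the list that passed the irreproducible discovery rate (IDR), a filter built on agreement of ranks between replicates. Here that list was the 4492 pooled regions of highest signal, of which 4473 matched a region in both replicate lists. The pooled list is labelled as peaks and background. A pooled region outside the IDR list thus need not be a site of Groucho. A single region in it need not rank alike in both replicates. Each region carries a signal from the authors' peak caller whose scale is not stated, and a pooled value cannot be set against a replicate value. Read numbers are not in these lists, which leaves the depth unknown. An immunoprecipitation from embryos without the GFP fusion was not analysed here, and recovery at strongly transcribed loci cannot be told apart from binding of Groucho. Whole embryos mix all tissues and ages, so a site in a few cells and a weak site in all cells cannot be told apart either.

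Rab proteins are small GTPases that give membranes their identity. In the GTP-bound state they recruit tethers, motors and sorting complexes to a given vesicle or organelle, guanine nucleotide exchange factors (GEFs) switch them on and GTPase-activating proteins (GAPs) switch them off. Lipid anchors added by Rab geranylgeranyl transferase hold them in the membrane, and the escort protein Rep and the dissociation inhibitor Gdi carry them through the cytosol. Groucho has no DNA-binding domain of its own. It is brought to DNA by repressors such as Hairy and the E(spl) proteins, and it is best known in the embryo for silencing patterning genes and Notch targets rather than genes of membrane traffic. The Rab genes were placed in 3 groups from general knowledge of conservation and expression. The broadly expressed conserved group held 17 genes, namely Rab1, Rab2, Rab4, Rab5, Rab6, Rab7, Rab8, Rab9, Rab10, Rab11, Rab14, Rab18, Rab21, Rab30, Rab35, Rab39 and Rab40. The tissue-restricted conserved group held 6 genes, namely Rab3, Rab19, Rab23, Rab26, Rab27 and Rab32, which are known mostly from neurons, secretory cells, pigment cells or patterned epithelia. The RabX group held 5 genes, RabX1, RabX2, RabX4, RabX5 and RabX6, whose names mark the lack of a clear vertebrate counterpart.

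The sequences just upstream of some of the Rab TSSs are printed below. Each stretch below runs 5′ to 3′ on the strand of the gene and ends at the base before its most upstream TSS. It is up to 150 bases long or stops at the near edge of a neighbour's transcript, which need not be a TSS. The last is the 151-base window around the summit of the strongest region inside a Rab gene. All were read from RefSeq Release 6, which is dm6, and capitals mark matches, on either strand, to the letters TATCGATA of the DNA replication-related element (DRE), the letters GAGAG of GAGA factor or the core GGTCACACT of motif 1, a core-promoter element. Matches to the other motifs searched are left in lower case. Rab7, Rab8, Rab30 and Rab6 have an IDR summit and a DRE, Rab14 has the motif 1 core, and Rab26, Rab10 and Rab1 have an IDR summit and no DRE. Of the genes with an IDR summit that are not printed, Rab2 has a DRE and Rab23, Rab32 and Rab39 have none. Rab27, Rab40, Rab35 and RabX6 have a DRE and no IDR summit, and RabX5 has neither.
Rab7 (chr3R:23992917-23993007, plus strand): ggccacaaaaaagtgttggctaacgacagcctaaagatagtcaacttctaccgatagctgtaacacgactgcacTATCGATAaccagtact
Rab8 (chr3L:19871079-19871138, minus strand): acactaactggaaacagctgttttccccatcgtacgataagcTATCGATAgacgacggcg
Rab30 (chr2L:7032607-7032720, minus strand): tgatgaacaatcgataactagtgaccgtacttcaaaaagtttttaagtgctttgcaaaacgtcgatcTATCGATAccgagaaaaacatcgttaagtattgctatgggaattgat
Rab6 (chr2L:12109117-12109266, minus strand): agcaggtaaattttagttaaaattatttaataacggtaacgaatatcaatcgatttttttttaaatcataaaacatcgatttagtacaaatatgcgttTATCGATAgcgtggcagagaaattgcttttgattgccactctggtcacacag
Rab14 (chr2L:14355086-14355144, plus strand): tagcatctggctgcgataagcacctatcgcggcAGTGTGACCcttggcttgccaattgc
Rab26 (chr3L:21318651-21318773, plus strand): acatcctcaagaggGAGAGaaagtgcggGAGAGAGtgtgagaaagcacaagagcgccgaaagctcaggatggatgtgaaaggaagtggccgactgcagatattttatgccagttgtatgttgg
Rab10 (chrX:20251188-20251337, plus strand): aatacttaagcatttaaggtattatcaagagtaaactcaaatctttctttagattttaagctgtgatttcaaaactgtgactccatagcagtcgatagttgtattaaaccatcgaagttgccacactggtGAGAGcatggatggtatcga
Rab1 (chr3R:21269061-21269208, minus strand): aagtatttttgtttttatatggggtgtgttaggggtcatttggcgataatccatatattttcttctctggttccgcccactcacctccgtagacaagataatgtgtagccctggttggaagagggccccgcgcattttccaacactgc
Rab27 (chrX:1476975-1477062, minus strand): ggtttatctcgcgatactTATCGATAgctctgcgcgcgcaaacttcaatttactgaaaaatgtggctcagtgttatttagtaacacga
Rab40 (chrX:12463113-12463262, minus strand): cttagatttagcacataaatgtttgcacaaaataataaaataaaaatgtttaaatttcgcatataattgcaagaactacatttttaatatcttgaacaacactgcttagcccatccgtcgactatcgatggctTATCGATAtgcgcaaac
Rab35 (chrX:20159873-20160022, minus strand): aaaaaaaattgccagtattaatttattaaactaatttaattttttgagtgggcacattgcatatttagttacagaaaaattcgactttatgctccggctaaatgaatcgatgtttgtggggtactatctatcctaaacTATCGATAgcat
RabX6 (chr3L:690367-690516, plus strand): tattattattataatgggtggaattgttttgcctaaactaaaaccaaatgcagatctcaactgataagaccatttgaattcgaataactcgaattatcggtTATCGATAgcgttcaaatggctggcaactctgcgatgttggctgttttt
RabX5 (chr3L:1670109-1670258, minus strand): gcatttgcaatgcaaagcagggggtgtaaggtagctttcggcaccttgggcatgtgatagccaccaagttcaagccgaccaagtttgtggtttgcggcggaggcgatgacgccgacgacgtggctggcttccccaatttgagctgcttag
Rab11 intron (chr3R:21113185-21113335, plus strand): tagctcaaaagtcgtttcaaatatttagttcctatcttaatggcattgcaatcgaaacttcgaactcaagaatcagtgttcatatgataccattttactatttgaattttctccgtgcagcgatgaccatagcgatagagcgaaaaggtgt
In Rab7 the DRE began 17 bases before the TSS and the IDR summit lay 12 bases before it, inside the 8 letters of the motif. In Rab14 the capitals mark the reverse complement of GGTCACACT, and its DRE lay further upstream, past the start of the divergent neighbour, so it is not in the stretch shown. In Rab26 the capitals mark overlapping and single runs of GAGAG.

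An IDR summit lay within 1 kb of a TSS at 12 of the 28 Rab genes (42.9%), against 25.9% of all protein-coding genes. A pooled summit lay there at 24 Rab genes (85.7%), against 57.3% of all protein-coding genes. The broadly expressed conserved genes had an IDR summit at 9 of 17 (52.9%) and a pooled summit at 17 of 17. The tissue-restricted conserved genes had an IDR summit at 3 of 6 (50%) and a pooled summit at 5 of 6, all but Rab3. The RabX genes had an IDR summit at 0 of 5 and a pooled summit at 2 of 5, RabX1 and RabX6. The differences between the groups were not tested, because genes are not replicates of a condition. The groups also differed in how many genes had a neighbouring TSS, as given below. The highest IDR site of a Rab gene had a median pooled signal of 133, against 125 over all protein-coding genes with such a site. The highest pooled summit had a median signal of 79.8 at Rab genes with one and 74.5 at all protein-coding genes with one. Listed summits thus lay within 1 kb of a TSS at a larger share of Rab genes than of all genes, at heights close to those of other genes. When only the nearest TSS was counted, 7 Rab genes (25%) kept an IDR summit, against 19.2% of all protein-coding genes.

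**Figure D1:**
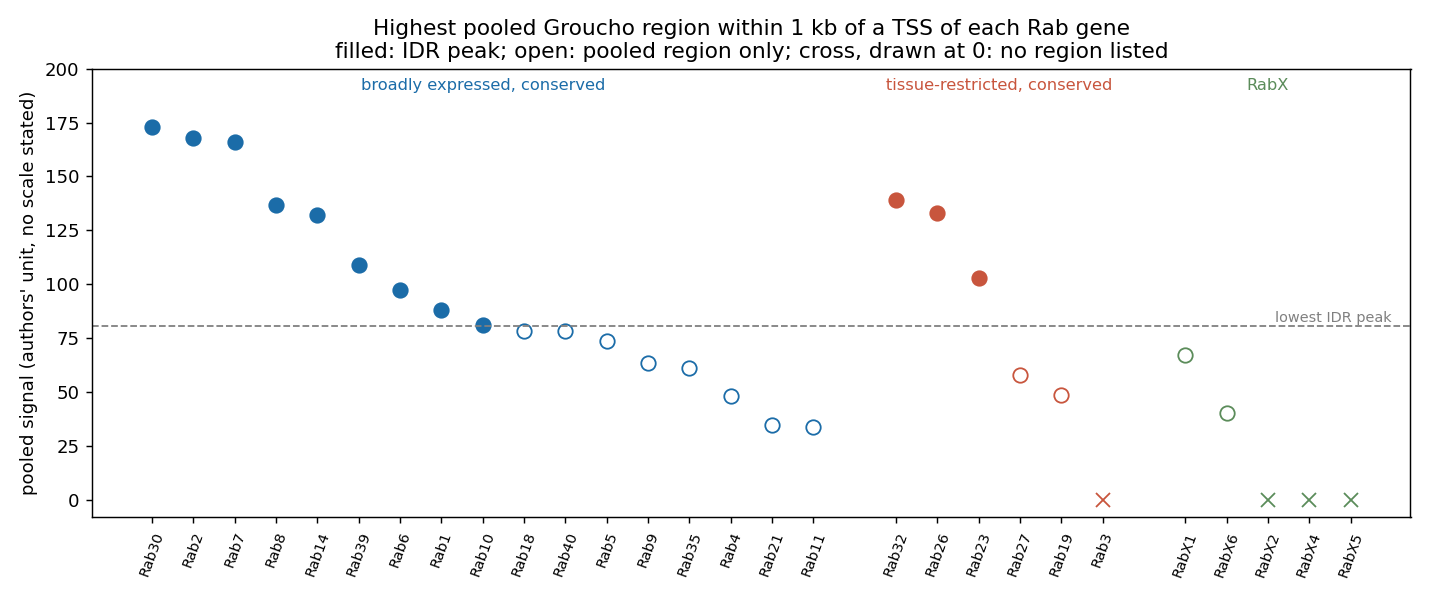
The highest pooled signal within 1 kb of a TSS (y axis, authors' unit with no stated scale) is plotted for each of the 28 Rab genes (x axis), grouped as broadly expressed conserved, tissue-restricted conserved and RabX. Filled points are IDR peaks, open points are pooled regions below the IDR limit (dashed line at 80.6), and crosses drawn at 0 mark genes with no listed region; the 12 filled points run from 81.1 at Rab10 to 173 at Rab30.

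Many of the Rab genes share a promoter region with a neighbour, and a summit within 1 kb can belong to either gene. Another protein-coding TSS lay within 1 kb of 18 of the 28 Rab genes, against 42.9% of all protein-coding genes. Of these 18 Rab genes 10 had an IDR summit, against 38.2% of all genes with such a neighbour. Of the 10 Rab genes without one, 2 had an IDR summit, Rab1 and Rab32, against 16.6% of all genes without such a neighbour. When a summit was counted only for the gene of the nearest TSS, 7 Rab genes (25%) kept one, against 19.2% of all protein-coding genes. These were Rab1, Rab2, Rab6, Rab7, Rab8, Rab14 and Rab32. The IDR summits near Rab10, Rab23, Rab26, Rab30 and Rab39 were nearer to the TSS of another gene. Under the nearest-TSS count the broadly expressed group kept 6 genes and the tissue-restricted group kept 1. In the tissue-restricted group 2 of the 3 summits were thus nearer to another gene. Another TSS lay within 1 kb of 13 of 17 broadly expressed, 3 of 6 tissue-restricted and 2 of 5 RabX genes. Of these, 8, 2 and 0 genes had an IDR summit. The part of neighbouring TSSs in the differences between groups was not tested.

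Among Rab proteins of the secretory pathway, the strongest site was at Rab30, which is known from the Golgi in mammalian cells. Its region (chr2L:7032475-7032884) ranked 887 of 30000 with a pooled signal of 173, and its signal was 100 in replicate 1 and 70.7 in replicate 3 (mean 85.4 ± 20.8, SD, n = 2). The summit lay 74 bp upstream of the Rab30 TSS and 41 bp from that of Caper, a splicing factor gene on the other strand. A second IDR site, 906 bp upstream of Rab30, had a pooled signal of 122 and replicate signals of 56.4 and 70.4 (mean 63.4 ± 9.86, SD, n = 2). Rab30 and Rab14 were the only members with 2 IDR summits within 1 kb.

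Rab2 acts in traffic at the Golgi and in the delivery of cargo to lysosomes. Its region (chr2R:6696526-6696935) had a pooled signal of 168 and rank 943, with 70.6 in replicate 1 and 95.2 in replicate 3 (mean 82.9 ± 17.4, SD, n = 2). The summit was 8 bp from the Rab2 TSS, in a divergent promoter whose other gene, Mob4, starts 78 bp away. Rab8, which directs vesicles from the trans-Golgi network to the plasma membrane, had a summit 24 bp upstream of its TSS (chr3L:19870897-19871306) with a pooled signal of 137. Its replicates differed, with 93.4 in replicate 1 and 49.8 in replicate 3 (mean 71.6 ± 30.8, SD, n = 2).

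Rab6, which moves membrane within and out of the Golgi, had its summit in the 5′ UTR, 45 bp past the TSS (chr2L:12108866-12109275). Its pooled signal was 97.6 and its replicate signals, 47.8 and 52.4, were close (mean 50.1 ± 3.27, SD, n = 2). Rab1, which takes vesicles from the endoplasmic reticulum to the Golgi, is the only member of the secretory group with an IDR site and no other TSS within 1 kb. Its summit was 13 bp upstream (chr3R:21268868-21269277) with a pooled signal of 88, and its signals were 51.1 in replicate 1 and 38.7 in replicate 3 (mean 44.9 ± 8.79, SD, n = 2). Rab10, a regulator of basolateral secretion, was the lowest member in the IDR list, with a pooled signal of 81.1 against a limit of 80.6 for the list (chrX:20250977-20251386). Its summit was 156 bp upstream of Rab10 and 89 bp from CG17068, and its signals were 31 and 49 (mean 40 ± 12.8, SD, n = 2).

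Among Rab proteins of endosomes and lysosomes, Rab7 had the highest signal within 1 kb of a TSS. Rab7 marks late endosomes and drives their fusion with lysosomes. Its region (chr3R:23992791-23993200) had a pooled signal of 166 and rank 978, with 83.3 in replicate 1 and 72.8 in replicate 3 (mean 78 ± 7.46, SD, n = 2). Another 3 pooled summits lay within 1 kb of its TSSs, at signals of 72.1, 50.3 and 26.2, the weaker pair of them in coding sequence.

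Rab14, which works between endosomes and the Golgi, had 2 IDR summits of different kinds. The summit of higher pooled signal, 132, lay in an intron 538 bp past the TSS, in a region of 140 bp (chr2L:14355641-14355780), whereas the typical IDR region was 410 bp wide. The replicates were far apart there, with 35.7 in replicate 1 and 93.6 in replicate 3 (mean 64.7 ± 41, SD, n = 2). The other summit lay in the 5′ UTR 33 bp past the TSS (chr2L:14354973-14355382), with a pooled signal of 95.6 and signals of 60.6 and 48.5 (mean 54.5 ± 8.56, SD, n = 2). Regions narrower than 410 bp made up 16.2% of the IDR list. Rab39, which functions in lysosomal traffic, had a summit 270 bp upstream of its TSS and 2 bp from the TSS of Pdp (chrX:7734448-7734857). Its pooled signal was 109, with 27.5 in replicate 1 and 82.5 in replicate 3 (mean 55 ± 38.9, SD, n = 2), a 3-fold gap that was the widest of the 12 members.

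Other endosomal Rab genes had no IDR summit within 1 kb. Rab5, the early endosome Rab, had 5 pooled summits around its 6 TSSs, the most of any member, and the highest reached 73.8, with 21.6 in replicate 1 and 52.6 in replicate 3. Rab4 and Rab35, which act in endocytic recycling, reached 48.3 and 61.3, and Rab21, of early endosomes and autophagy, reached 34.8. Rab9, known in mammals from transport between late endosomes and the Golgi, reached 63.7 at a summit 999 bp past the TSS, at the very edge of the window.

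Rab11, the Rab of recycling endosomes, had weak regions at its TSS and a strong one further inside. Within 1 kb of its TSS the highest pooled signal was 33.7, the lowest of the 24 Rab genes with any pooled summit there. In an intron 1852 bp past the TSS lay an IDR region of 184 bp (chr3R:21113137-21113320) with a pooled signal of 274 and rank 288. Its signal was 111 in replicate 1 and 163 in replicate 3 (mean 137 ± 36.6, SD, n = 2), above the mean of each of the 12 highest sites near Rab TSSs. The sequence around that summit, printed above, held the initiator letters TCAGT once, in lower case there, and no match to the other 7 motifs searched.

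**Figure D2:**
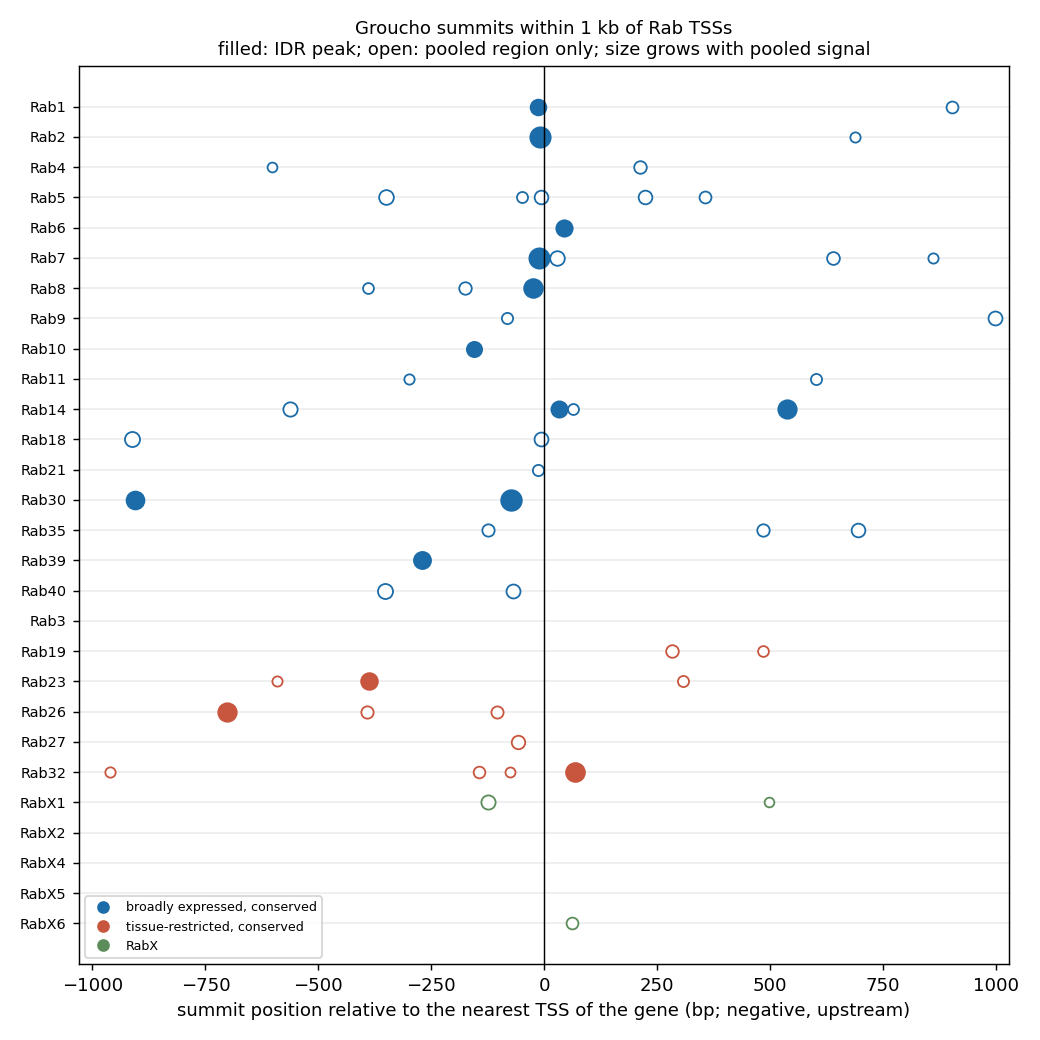
Each row is 1 of the 28 Rab genes and each point a listed summit within 1 kb. Points are placed by distance in bp from the nearest TSS of the gene (x axis, negative upstream). Filled points are IDR peaks, open points are pooled regions only, which may be background, and point size grows with pooled signal. The highest IDR summit was within 100 bp of the TSS at 7 of 12 Rab genes, and Rab3, RabX2, RabX4 and RabX5 have no point.

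Of the tissue-restricted genes, Rab32 had a site of its own. Rab32 is known in flies as lightoid and is needed for eye pigment granules. Its summit lay in the 5′ UTR 68 bp past a TSS (chr2R:9186069-9186478), with a pooled signal of 139, rank 1463, and signals of 79.7 and 63.4 (mean 71.6 ± 11.5, SD, n = 2). No other protein-coding TSS lay within 1 kb of it. Rab26, linked to secretory granules and synaptic vesicles in mammals, had an IDR summit 703 bp upstream (chr3L:21317866-21318275), but the TSS of Pc lay only 51 bp from it. Pc encodes Polycomb, a subunit of a repressive chromatin complex. That site had a pooled signal of 133, with 73.5 in replicate 1 and 61.3 in replicate 3 (mean 67.4 ± 8.64, SD, n = 2). The pooled summit nearest to the Rab26 TSS itself, 105 bp upstream, reached 43.9, with 32.1 in replicate 3 and no matching region in replicate 1.

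Rab23, which acts in planar cell polarity of the fly wing, had an IDR summit 387 bp upstream (chr3R:5685616-5686025), 34 bp from the TSS of plx, a TBC-domain gene of the Rab GAP kind. Its pooled signal was 103, with 46.3 and 53.4 in the replicates (mean 49.9 ± 5.02, SD, n = 2). Rab27, of regulated secretion in neurons, reached a pooled signal of 58.2 at a summit 58 bp upstream and 31 bp from mei-38. An IDR summit at 104 lay 1538 bp upstream of Rab27, 40 bp from rush. Rab19 reached 48.6 in its coding sequence. Rab3, which sits on synaptic vesicles, had no pooled summit within 1 kb. The nearest to it was 1094 bp upstream with a signal of 24.8, close to the lowest signal of the pooled list, 21.4. The replicate 1 list, taken alone, held a summit within 1 kb of Rab3 and the replicate 3 list did not.

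The RabX genes had the fewest listed summits within 1 kb. RabX1 reached a pooled signal of 67.5, with 33.4 in replicate 1 and 35.5 in replicate 3 (mean 34.4 ± 1.47, SD, n = 2), at a summit 118 bp from mi and 125 bp from RabX1. RabX6 reached 40.5 in its 5′ UTR, with 33.1 in replicate 3 and no matching region in replicate 1. For RabX4 the nearest pooled summit was 1705 bp upstream at 37.1, although each replicate list of 30000 regions, taken alone, held a summit within 1 kb of its TSS. RabX2 was the farthest from a summit among the RabX genes, with its nearest pooled summit 12704 bp and its nearest IDR summit 29563 bp away. RabX5 had no pooled summit within 1 kb, yet a strong IDR site lay 1357 bp past its TSS, beyond the end of the gene. That site (chr3L:1668638-1668873) had a pooled signal of 386, rank 127, and signals of 159 and 224 (mean 192 ± 45.6, SD, n = 2), and it was 97 bp from the TSS of RpL23A, a ribosomal protein gene. The 5 genes named Rab9 with a letter suffix (Rab9D, Rab9Db, Rab9E, Rab9Fa and Rab9Fb), which the symbol rule leaves out, had no IDR and no pooled summit within 1 kb.

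In all, 12 Rab genes had a pooled but no IDR summit within 1 kb, with highest signals from 33.7 to 78.5 and a median of 59.7. Rab18, a Rab of lipid droplets and the endoplasmic reticulum, and Rab40, which carries a SOCS box that binds a ubiquitin ligase, fell just outside the IDR list. Rab18 reached 78.5 with rank 4717, and Rab40 reached 78.2 with rank 4747, against 81.1 for Rab10 just inside. The Rab18 summit was 912 bp upstream and 10 bp from the TSS of RpL35, another ribosomal protein gene, with 43.3 in replicate 1 and 37.7 in replicate 3. The Rab40 summit was 353 bp upstream and 63 bp from CG42258, with 28.2 in replicate 1 and 46.3 in replicate 3. Both genes also had a lower pooled summit nearer to their own TSS. It was 6 bp upstream at 63.6 in Rab18 and 69 bp upstream at 64.2 in Rab40.

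The order of the 12 members by signal was loose. In pooled signal it ran from Rab30, Rab2 and Rab7 through Rab32, Rab8, Rab26, Rab14, Rab39, Rab23 and Rab6 to Rab1 and Rab10. Each of the 11 pairs of neighbours in that order differed in replicate mean by less than the larger of their SDs. Replicate 3 was higher than replicate 1 at 6 of the 12 sites and lower at the other 6, and its median ratio to replicate 1 was 0.985. Over 4473 IDR peaks found in both replicate lists, replicate 3 was higher at 63.9%, with a median ratio of 1.17. Taking the 4492 highest regions of each replicate list instead of the IDR list, 13 Rab genes had a summit in replicate 3 and 11 in replicate 1. The shares of all protein-coding genes were 25.4% and 25.5%. The 9 genes found in both of these lists were all among the 12. Rab1 was missing from the replicate 3 list and Rab10 and Rab39 from the replicate 1 list, while Rab5 and Rab40 came in with replicate 3 and Rab18 with replicate 1.

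**Figure D3:**
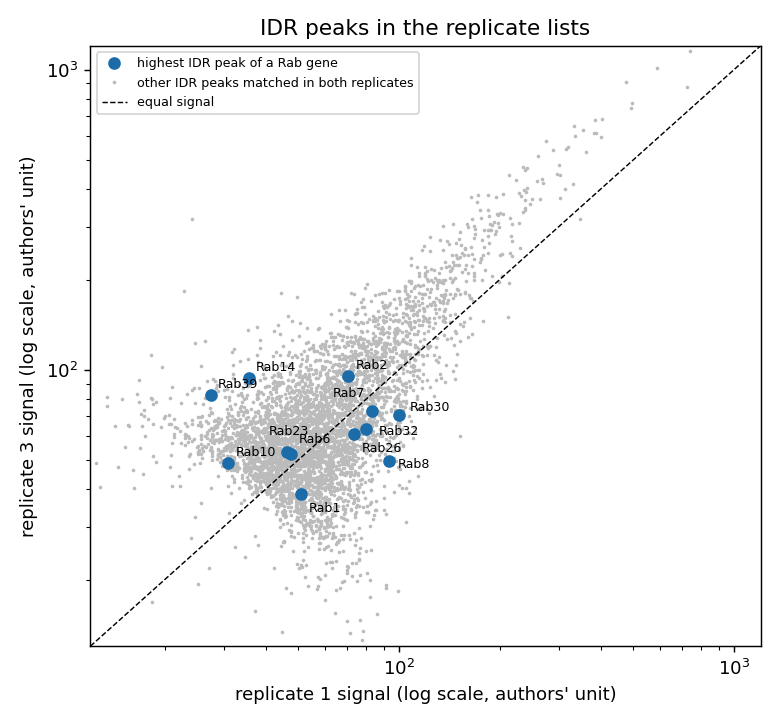
Signal in replicate 1 (x axis) and replicate 3 (y axis), both on log scales in the authors' unit, for the IDR peaks matched in both replicate lists (grey) and the highest IDR peak of each of the 12 Rab genes that have one (blue); the dashed line marks equal signal. Of the blue points 6 lie above the line and 6 below, and Rab14 and Rab39 lie farthest above it.

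Only summits within 1 kb of a TSS were counted, so closeness to a TSS was set by the rule, for members and for all genes alike. The highest IDR summit of a member was at a median of 71 bp from the nearest TSS of the gene, against 117 bp over all protein-coding genes with a site. It was within 100 bp at 7 of 12 members, against 45.2% of all protein-coding genes with a site. By annotation the highest summit was outside the gene, upstream of the TSS, at 9 members, in the 5′ UTR at Rab6 and Rab32, and in an intron at Rab14.

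The DRE was found in a larger share of Rab promoters than of promoters at large. The protein DREF binds this element and is known for activating genes of replication and growth. TATCGATA, which is its own reverse complement, was found in 11 of 28 Rab promoters (39.3%), against 9.36% of 13945, where a promoter is the 250 bases before and 50 after the most upstream TSS. The 11 were Rab2, Rab6, Rab7, Rab8, Rab14, Rab19, Rab27, Rab30, Rab35, Rab40 and RabX6. By group these were 8 of 17 broadly expressed, 2 of 6 tissue-restricted and 1 of 5 RabX genes. Of the Rab genes with a DRE, 6 of 11 had an IDR summit within 1 kb, against 42.4% of all genes with a DRE. Of the Rab genes without a DRE, 6 of 17 had one, against 24.2% of all genes without a DRE. All 6 Rab genes with both were in the broadly expressed group.

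Genes with a neighbouring TSS held the DRE more often as well. It was found at 9 of 18 Rab genes with another TSS within 1 kb, against 14.1% of all such genes, and at 2 of 10 without, against 5.79%. Among Rab genes with an IDR summit 6 of 12 had a DRE, against 15.3% of all genes with an IDR summit. Among those with a pooled summit alone 5 of 12 had a DRE, against 12% of all such genes, and among those with no pooled summit 0 of 4 did, against 3.81%. The share was thus higher in Rab promoters with an IDR summit and in those with a pooled summit alone, and the part of neighbouring TSSs in it was not tested. The inner 6 letters ATCGAT, counted after the first result was seen, were in 17 of 28 Rab promoters (60.7%), against 23.3% of all promoters. In other small GTPase families the letters ATCGAT were in 8 of 12 Arf family promoters and 4 of 6 Ras family promoters (66.7% of each), and the whole DRE was in 3 of 12 Arf (25%) and 2 of 6 Ras promoters (33.3%).

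The distance between element and summit varied from member to member. The centre of the DRE was 1 bp from the nearest IDR summit in Rab7, 10 bp in Rab8, 31 bp in Rab30, 40 bp in Rab2, 93 bp in Rab6 and 110 bp in Rab14. At the pooled summits it was 8 bp away in Rab27, 56 bp in Rab40, 108 bp in RabX6 and 450 bp in Rab19. Rab35 held 2 copies, the printed copy 12 bases before the TSS at 117 bp from the nearest pooled summit and another 170 bases before the TSS at 41 bp. Of all IDR summits 4.94% had a DRE within 75 bp on either side.

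Of the other 7 motifs, searched on both strands, GAGAG and TATAAA were found in a smaller share of Rab promoters than of all promoters. CACGCG was in a larger share, at 3 genes, and the rest stood close to the share of all promoters. These differences were not tested. The letters GAGAG were in 4 Rab promoters (14.3%), against 29.7% of all. Those 4, Rab7, Rab10, Rab26 and Rab32, were among the 12 Rab genes with an IDR summit, and 30.2% of all genes with an IDR summit held these letters, close to the share of all genes. TATAAA, the TATA box, was in 8 (28.6%), against 45.8%. The core of motif 1, GGTCACACT, was in 1 (3.57%), against 6.05%, and TCAGT, of the initiator, was in 14 (50%), against 51.5%. The letters bound by Hairy and E(spl) repressors, which bring Groucho to DNA, were in few promoters, of Rab genes and of all genes alike. CACGTG was in 1 Rab promoter (3.57%), that of Rab14, against 4.2% of all. CACGCG was in 3 (10.7%), those of Rab26, Rab39 and RabX4, against 6.12% of all. TAATTA, of homeodomain proteins, was in 5 (17.9%), against 20.4%. A match is letters in a window and not a bound site.

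**Figure D4:**
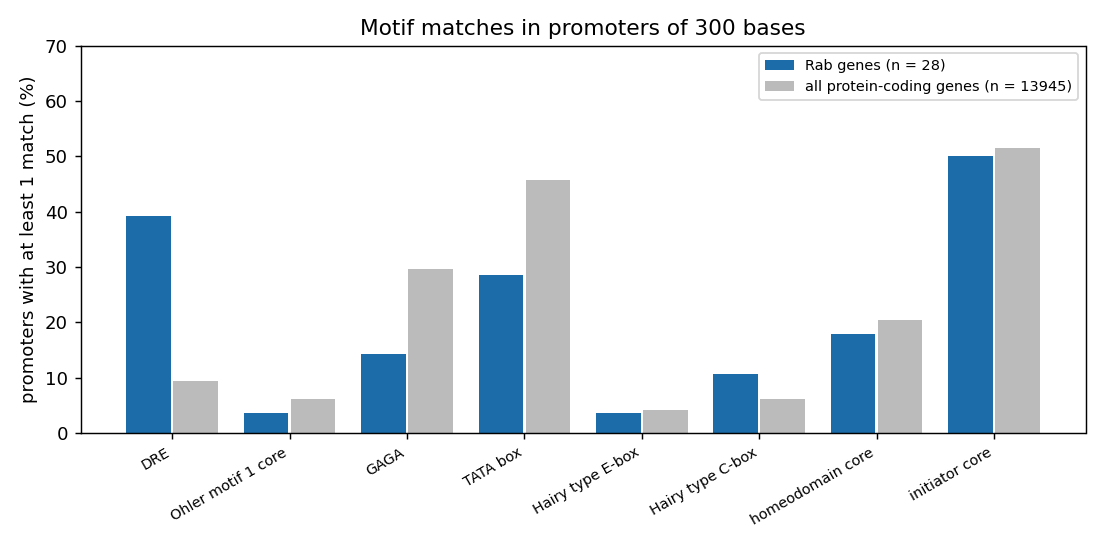
Bars give the share of promoters with at least 1 match (y axis, percent, from 0) to each of 8 motifs (x axis), for the 28 Rab genes (blue) and for all 13945 protein-coding genes (grey), in windows of 300 bases. The DRE stands at 39.3% of Rab promoters and 9.36% of all promoters, and GAGAG and TATAAA stand lower in Rab genes.

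The genes that run the Rab cycle were described in the same way, from lists of regulators. All 4 genes of the core cycle had an IDR summit within 1 kb, against the 25.9% of all protein-coding genes. RabGGTb and RabGGTa, the subunits of the geranylgeranyl transferase, reached pooled signals of 176 and 169, with replicate means of 88.7 ± 3.81 and 85.3 ± 18.4 (SD, n = 2). Their summits were 728 and 980 bp from their TSSs, and that of RabGGTb lay 40 bp from Sbat. Rep reached 101 at 26 bp past its TSS, with 52.3 in replicate 1 and 20.4 in replicate 3, and Gdi reached 97.5 at a summit 107 bp from CG33298. Of the 4, Rep alone had its highest summit within 100 bp of its own TSS.

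Of 21 Rab GEF genes 8 had an IDR summit (38.1%), against 25.9% of all protein-coding genes. The highest were SIDL at 238, Mon1 at 199 and strat at 186. The SIDL summit lay 230 bp from its own TSS and 152 bp from that of CG12241. Counting the nearest TSS only left 5 GEF genes (23.8%), against 19.2% of all protein-coding genes. Mon1 forms with Ccz1 the exchange factor of Rab7, and both genes had an IDR summit close to their own TSS, 36 bp upstream at Mon1 and 27 bp upstream at Ccz1. The replicate means were 99.6 ± 41.8 at Mon1 and 62.9 ± 14.6 at Ccz1, beside 78 ± 7.46 at Rab7 (SD, n = 2). Of 13 Rab GAP genes 4 had an IDR summit (30.8%), close to the 25.9% of all protein-coding genes. They were Rab3GAP1 at 201, sky at 142, Evi5 at 139 and plx at 103, the last being the site also counted for Rab23. The Rab3GAP1 summit lay 140 bp from its own TSS and 113 bp from that of CG14352. By nearest TSS 3 GAP genes (23.1%) kept a summit, against 19.2%. Of 28 effector genes 13 had an IDR summit (46.4%), against the same 25.9%, and the highest were Rbsn-5 at 376, didum at 210 and GCC185 at 135. Rbsn-5, an effector of Rab5, shares its site with PAPLA1, 92 bp away, and its replicate signals were 158 and 217 (mean 187 ± 41.9, SD, n = 2). didum encodes a class V myosin, and its region matched none in replicate 1. The didum summit lay 165 bp from its own TSS and 105 bp from that of dpa. By nearest TSS 8 effector genes (28.6%) kept a summit, against 19.2%.

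Other families of small GTPases were counted in the same way. An IDR summit lay at 42.9% of Rab genes and at 25.9% of all protein-coding genes. Of 12 Arf family genes, which act in coat assembly, 3 had an IDR summit (25%), near the share of all genes. They were Arl1 at 217, Sar1 at 176 and Arl5 at 96. The Arl1 summit lay 169 bp from its own TSS and 97 bp from that of brm. By nearest TSS 2 Arf family genes (16.7%) kept a summit, against 19.2% of all protein-coding genes. Of 6 Ras family genes, which signal for growth, 4 had an IDR summit (66.7%), the highest being Ras85D at 231, Ras64B at 119 and Rheb at 110. The Rheb summit lay 177 bp from its own TSS and 129 bp from that of CG2931. By nearest TSS 3 Ras family genes (50%) kept a summit, against 19.2%. With lists this short, 1 gene moves the shares by many points, and the differences between families were not tested.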

How the data were processed

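ChIP-seq of gro-GFP embryos was measured in 2 biological replicates of 1 group. The manifest deposited with the files states that regions were called from each replicate's alignment, and from both pooled, with a control alignment not analysed here, and that the IDR list derives from these lists; all are in dm6. Which aligner, peak caller, versions and IDR threshold they used is not stated in the labels or files used here. The signal deposited in column 7 is the authors' value per region, with no scale stated, and it was used to describe and rank regions. The 4492 IDR peaks were the 4492 regions of highest signal in the pooled list, down to 80.6. The depth is unknown.

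TSSs of all transcripts of protein-coding genes came from Ensembl release 115, and sequence from RefSeq Release 6. Positions count from 1. A site was assigned to every gene with a TSS at most 1 kb from the summit. A region was matched to a replicate region by overlap of at least 1 bp, the nearest summit being taken, so 1 replicate region can match 2 neighbouring pooled regions. Motifs were searched as exact letters on both strands. Lists of regulators and other GTPases were matched by symbol or synonym, and Ric1, TBC1D8-9 and TBC1D15-17 were not matched. The result of 1 list is not reported here. The member genes, groups, lists and motifs were chosen with earlier results of these data known. Every Rab gene is named, and of each other list the 3 genes of highest signal, with Ccz1, Gdi and plx added after their values were seen. No test was run, since the series has no contrast. Counting was tested on simulated summits with known genes. Python 3.11.15, numpy 2.4.6 and matplotlib 3.10.9 were used. Alternatives were a 500 bp and a 2 kb window, the upper part of the IDR list above its median, region overlap, RefSeq TSSs, nearest TSS only, other groupings, and each replicate list alone.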

Additional observations from a re-analysis of the deposited data

How the results depend on the processing

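The count of 12 of 28 Rab genes became 11 with a 500 bp window, against 22.9% of all protein-coding genes. It became 15 with a 2 kb window, against 30.6%. It stayed at 12 with region overlap, against 26.7%, and with RefSeq TSSs, against 25.9%. Adding the letter-suffixed genes, none of which had a summit, gave 12 of 33, against 25.9%. With 1 replicate left out the count of Rab genes was 13 without replicate 1 and 11 without replicate 3, against 25.4% and 25.5% of all protein-coding genes. The pooled count was 25 either way, against 59.1% without replicate 1 and 58.3% without replicate 3. RabX4 was added in both, Rab3 was added without replicate 3 and RabX6 was lost there. The broadly expressed count ranged from 8 to 10, the tissue-restricted count was 3 and the RabX count 0 in both. Keeping the IDR peaks above the median signal gives a list that is shorter by construction. It left 7 Rab genes (25%, against 15.1% of all protein-coding genes), 5 of them broadly expressed. It also left 2 of 4 core-cycle genes, 5 of 21 GEFs, 5 of 28 effectors and 2 of 6 Ras family genes, against the same 15.1%. The effector count thus fell from 13 to 5 of 28, near the share of all genes. Counting the nearest TSS only left 7 Rab genes and 1 tissue-restricted gene. Genes without another TSS within 1 kb, a subset added after seeing the data, gave 2 of 10. Moving Rab9, Rab30, Rab39 and Rab40, whose expression is less certain, to the tissue-restricted group gave it 5 of 10 and left 7 of 13 broadly expressed. A 2 kb window gave 1 RabX gene, RabX5, through the RpL23A site, and a 500 bp window left 2 core-cycle genes. No paired analysis was possible because the series holds 1 group. Without a depth, absence from a list cannot be told apart from low coverage.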
